A study of Mus musculus with 8 samples.

Results

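Promoter DNA methylation was compared between library set 2 and library set 1 of germline stem (GS) cell lines. The sets were given as lists of lines, and the labels name no set or batch. The source label names natural mating or ICSI-derived mice in set 1 and reads only germline stem cell in set 2. Set 1 held the control-F1 lines 29 and 37 and the ICSI-F1 lines 11 and 17, and set 2 held the control-F1 lines 44 and 45 and the ICSI-F1 lines 20 and 21. All 8 lines of the series were thus used, 4 against 4, with 2 lines of each origin in each set. Of 9224 genes with promoter sites, 7278 had 5 or more sites and were compared one by one, and the 1946 genes under 5 sites entered only the site averages. GS cells are spermatogonial stem cells kept as long-term cultures, here with GDNF and FGF2. They were derived from CD9-sorted spermatogonia of mature testes. Control-F1 mice were sired by natural mating and ICSI-F1 mice came from intracytoplasmic sperm injection. Every line was labelled wild type, was untreated and carried the B6 name. One reduced representation bisulfite library was sequenced per line, and the labels give neither the mouse behind each line nor a library date. The p-values therefore measured only the spread between these lines. Set membership, sequencing depth and any other difference in handling cannot be told apart.

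Methylation of the cytosine in CpG dinucleotides is kept through cell division by a maintenance methyltransferase and is laid down anew by de novo enzymes. CpG islands at gene starts are usually free of it, while CpGs outside islands are mostly methylated. Male germ cells carry the paternal pattern of imprints, with methylation at H19 and Meg3 and none at maternally methylated genes. The method cuts DNA with the enzyme MspI, whose recognition sequence contains a CpG, and reads the fragment ends after bisulfite treatment. A methylation level is here the percentage of reads at a cytosine that were methylated. It averages over the cells of a library, so that more methylated cells and more methylation per cell cannot be told apart. Cytosines left unconverted by bisulfite are counted in it too.

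The sequences below are the windows of 7 promoters described further on. They are read 5′ to 3′ on the strand of the gene from the RefSeq assembly GRCm38.p6 (mm10). Capitals mark the measured CpGs. Trf, Gm39119 and Kcnn4 had the highest rises with no overlap between the sets. Zfp42 and Ehmt2 are members of gene lists. Xpo5 and Ddias show promoters whose difference was carried by CpGs in MspI sites. None of the 7 windows overlapped an annotated exon. The windows lie at chr9:103230603-103230896 for Trf (minus strand), chr7:144910290-144910570 for Gm39119 (minus) and chr7:24370007-24370169 for Kcnn4 (plus). Those of the others are chr8:43307398-43307585 for Zfp42 (minus), chr17:34898396-34898467 for Ehmt2 (plus), chr17:46202707-46202772 for Xpo5 (plus) and chr7:92874248-92874340 for Ddias (minus). The last base of the Ddias window is a measured cytosine whose guanine lies in the gene.
Trf: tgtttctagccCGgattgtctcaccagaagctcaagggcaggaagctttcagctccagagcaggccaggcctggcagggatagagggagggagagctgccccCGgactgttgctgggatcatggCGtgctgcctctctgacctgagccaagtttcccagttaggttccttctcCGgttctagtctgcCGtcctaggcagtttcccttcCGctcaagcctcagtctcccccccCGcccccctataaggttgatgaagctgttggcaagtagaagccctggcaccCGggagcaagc
Gm39119: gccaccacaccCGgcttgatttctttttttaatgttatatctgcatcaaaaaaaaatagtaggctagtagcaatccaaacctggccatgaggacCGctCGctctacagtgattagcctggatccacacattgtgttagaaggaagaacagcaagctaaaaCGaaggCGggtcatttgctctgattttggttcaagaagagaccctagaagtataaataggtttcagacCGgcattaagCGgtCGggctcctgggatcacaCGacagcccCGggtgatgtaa
Kcnn4: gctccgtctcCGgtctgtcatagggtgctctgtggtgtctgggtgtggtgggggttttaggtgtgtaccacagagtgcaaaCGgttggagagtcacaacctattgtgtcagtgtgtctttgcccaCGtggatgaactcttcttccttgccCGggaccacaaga
Zfp42: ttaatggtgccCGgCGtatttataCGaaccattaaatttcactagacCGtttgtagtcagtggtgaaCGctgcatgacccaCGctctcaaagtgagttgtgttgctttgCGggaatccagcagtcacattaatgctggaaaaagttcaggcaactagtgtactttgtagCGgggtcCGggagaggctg
Ehmt2: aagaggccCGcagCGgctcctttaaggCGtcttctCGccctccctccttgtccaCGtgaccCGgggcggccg
Xpo5: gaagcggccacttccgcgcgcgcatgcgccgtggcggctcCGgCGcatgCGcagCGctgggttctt
Ddias: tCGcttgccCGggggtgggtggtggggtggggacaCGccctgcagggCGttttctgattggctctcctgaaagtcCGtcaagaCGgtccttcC

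Depth moved with the set. After the authors' scaling was undone, the summed coverage of promoter sites was 9121937 to 12678559 reads in set 1 lines and 14264323 to 16781748 reads in set 2 lines. The median site had 41 to 62 reads in set 1 and 69 to 82 reads in set 2. The part of depth in the results was not tested. As a check of cell identity, the paternally methylated genes were read first. The 13 H19 sites averaged 39.6% in set 1 and 40.8% in set 2. The 4 farthest from the gene start, at positions 142578768 to 142578865 of chromosome 7, had set means of 81.7% to 92.4% in set 1 and 92.4% to 98.8% in set 2. Among the other 9, the MspI cytosine at 142578166 had 97.8% and 98.0%, and the rest had set means of at most 40.5%. The measured promoter sites of Meg3 (23.0% and 15.2%), Dio3 (2.83% and 4.70%) and Rasgrf1 (2.85% and 5.53%) were lower in both sets. They lie within 1 kb upstream of the genes, and regions farther upstream were not measured. Low values there therefore do not show that a paternal imprint is missing. With COBRA, a bisulfite and restriction digest assay, the authors reported androgenetic patterns in F1 GS cells, with Meg3 IG among the regions. Line 37 had lower levels than the other set 1 lines at sites of intermediate and high level, and values without it are given where they differ.

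Promoter methylation was higher in set 2, in every CpG class. Over all 203645 sites, the mean level in set 1 was 6.14% in line 11, 6.88% in line 17, 6.34% in line 29 and 6.45% in line 37. In set 2 it was 8.80% in line 20, 8.24% in line 21, 9.26% in line 44 and 8.59% in line 45. Each set 2 line lay above each set 1 line. The mean was 6.45% ± 0.315 (SD, n = 4) in set 1 and 8.72% ± 0.428 (SD, n = 4) in set 2, a difference of 2.27 percentage points (two-sided exact permutation test, p = 0.0286, the smallest p of the 70 possible arrangements of the lines). The difference was 2.54 points within the control-F1 lines and 2.01 points within the ICSI-F1 lines. The difference between the origins, ICSI-F1 minus control-F1, was −0.147 points.

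The 156142 CpG island sites rose from 3.90% ± 0.300 to 5.97% ± 0.447 (SD, n = 4 each), by 2.07 points or 1.53-fold. Sites in CpG shores, the flanks of islands, rose from 9.79% ± 0.510 to 12.9% ± 0.521, by 3.14 points over 22015 sites. The 1502 shelf sites, farther out, rose from 17.1% ± 0.997 to 20.2% ± 0.546. The 23986 sites outside islands, shores and shelves rose from 19.3% ± 0.594 to 22.1% ± 0.546, by 2.78 points or 1.14-fold. In each of these classes all set 2 lines lay above all set 1 lines (exact permutation test, p = 0.0286 before and after Benjamini-Hochberg adjustment over the 5 values). Shores rose by 1.07 points more than islands (exact permutation test on the within-line difference, p = 0.0286). The excess of sites outside over islands was 0.711 points and that of shelves 1.00 points, and both were within the spread between lines (exact permutation test, p = 0.143 for each). With sites weighted by coverage, the excess outside was 2.11 points and passed (exact permutation test, p = 0.0286).

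**Figure D1:**
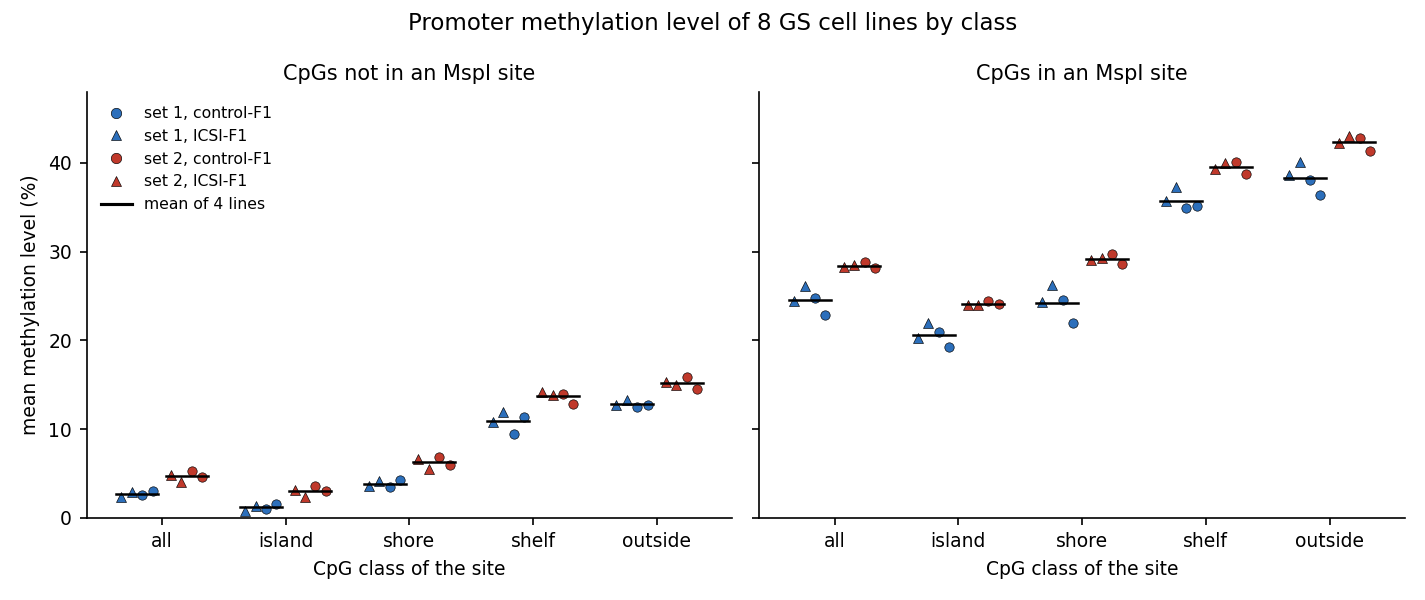
Mean methylation level (%) of each of the 8 lines by CpG class, for CpGs outside MspI sites (left) and in them (right). Points are lines, colours are sets, shapes are origins and bars are means of 4 lines. In islands outside MspI sites the set 1 lines sit between 0.787% and 1.55% and the set 2 lines between 2.37% and 3.56%.

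CpGs inside an MspI recognition site had far higher levels than their neighbours. They made up 34804 sites, 17.1% of the total, with 24.6% ± 1.31 in set 1 and 28.4% ± 0.300 in set 2 (SD, n = 4 each). The strands of these CpGs often disagreed. Among 10914 such CpGs read on both strands, the median gap between strands was 20.3 points in set 1 and 22.4 points in set 2. Among 69789 CpGs outside MspI sites it was 1.71 and 3.52 points. The set comparison was therefore also made without them. Sites outside MspI sites had 2.72% ± 0.318 in set 1 and 4.66% ± 0.481 in set 2, a 1.71-fold difference (exact permutation test, p = 0.0286). Island CpGs outside MspI sites changed most as a ratio. They had 0.787%, 1.33%, 1.04% and 1.55% in lines 11, 17, 29 and 37. The same sites had 3.08%, 2.37%, 3.56% and 3.003% in lines 20, 21, 44 and 45. The sets did not overlap, and the set 2 mean was 2.56-fold the set 1 mean (exact permutation test, p = 0.0286). Both means were low, at 1.17% in set 1 and 3.003% in set 2. No bisulfite conversion rate is given for the libraries, and the part of unconverted cytosines was not tested.

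The rise was present over the whole range of levels. The share of sites with no methylated read was 58.5% to 69.1% in set 1 lines and 34.8% to 44.3% in set 2 lines. A deeper library finds a methylated read more often, so the share expected in a draw of 10 reads per site was computed too. It was 77.1% to 81.9% in set 1 and 63.8% to 71.5% in set 2 (exact permutation test of the means, p = 0.0286). The draw took reads as independent, though unscaled methylated read numbers were mostly even. The median site was at 0 in each set 1 line and between 1.80% and 3.01% in set 2.

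Grouped by mean level over the 8 lines, the 77994 sites between 2% and 5% differed by 2.47 points and the 13424 sites between 5% and 10% by 4.04 points. The greatest differences were at intermediate to high levels. They came to 14.4 points for the 2852 sites between 40% and 60% and 17.4 points for the 1849 sites between 60% and 80%. In these groups the origins differed from each other, with 23.0 points in control-F1 lines and 11.8 points in ICSI-F1 lines for sites between 60% and 80%. Line 37 had 43.4% there while the other set 1 lines had 64.7% to 69.9%. Without line 37 the difference was 11.5 points in both groups. At 95% and above, 3252 sites differed by 0.440 points. These groups use the same lines as the comparison and are a description. They pool CpGs in and out of MspI sites and were not split by them. MspI CpGs made up 92.0% of the single sites counted as higher by the rule given below.

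**Figure D2:**
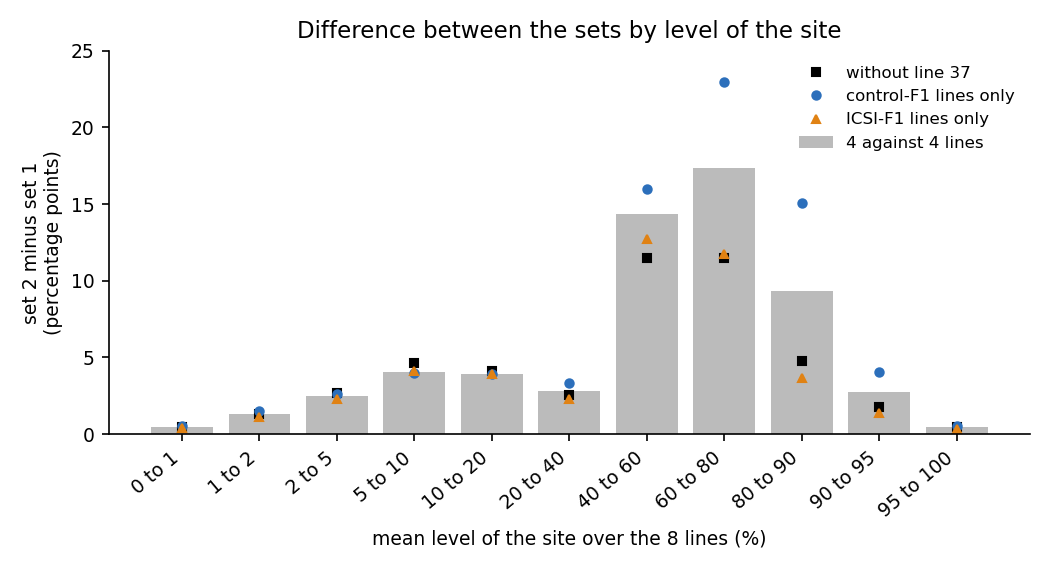
Set 2 minus set 1 difference in methylation level (percentage points) for sites grouped by their mean level over the 8 lines (%). Bars use 4 lines against 4, squares leave out line 37, and circles and triangles are the control-F1 and ICSI-F1 lines alone. CpGs in and out of MspI sites are pooled. All groups lie above 0, with 17.4 points between 60% and 80% falling to 11.5 points without line 37.

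The rise in percentage points changed with CpG density and with distance from the gene. Sites with 1 to 5 CpGs in the 50 bases on both sides, themselves included, rose by 3.35 points, those with 6 to 10 by 2.51 points, those with 11 to 15 by 1.86 points and those with 16 or more by 1.39 points. Sites within 100 bases of the gene start rose by 2.03 points and the group farthest upstream by 2.86 points. Plus and minus strand sites rose by 2.28 and 2.27 points. Each of these groups of sites passed the exact permutation test at p = 0.0286.

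Single promoters were compared by the unweighted mean level of their sites. The difference was above 0 at 6830 of 7278 promoters (93.8%), with a median of 2.15 points and a 5th to 95th percentile range of −0.192 to 6.14 points. The logistic model with origin as a covariate called 2264 promoters higher in set 2 (31.1% of those tested) and 5 lower (0.0687%) at a false discovery rate of 0.05. All 4 set 2 lines lay above all 4 set 1 lines at 2434 promoters (33.4%) and below them at 5 (0.0687%). Both criteria held at 1572 promoters. In the same fit, origin gave 0 calls (0%), with 152 promoters higher and 322 lower in ICSI-F1 at an unadjusted p under 0.05. The ICSI-F1 lines lay wholly above the control-F1 lines at 32 promoters (0.44%) and wholly below at 53 (0.728%). With limma on the mean level, 970 promoters were called higher in set 2 and 1 lower, and 759 of the 970 were also called by the logistic model. Adjusted p-values below are from the logistic model unless limma is named. Of the called promoters named below, Gm39119, Nos3, Parp6, Asz1, Etv5, Shisa6, Klf5, Sall1, Gdnf, Dio3, Casd1, Cd81, Cobl, Cdh3, Dot1l, Gadd45b, Kmt2d, Uhrf2, Klkb1, Lap3, H19 and Gm45533 were not called by limma. After the mean over promoters of each line was subtracted, limma called 0 in either direction, with 287 higher and 716 lower at an unadjusted p under 0.05.

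The share called followed the number of sites more than the size of the difference. It was 12.04% at 5 to 9 sites, 20.8% at 10 to 19, 34.7% at 20 to 39 and 61.6% at 40 or more, while the median difference was 2.15, 2.29, 2.27 and 1.99 points. Of 4869 island promoters 1744 (35.8%) were called higher, with a median of 2.06 points. The counts were 203 of 771 shore promoters (26.3%, median 2.84 points), 19 of 90 shelf promoters (21.1%, median 2.36 points) and 298 of 1548 promoters outside these classes (19.3%, median 2.26 points). The 139 promoters of the X chromosome had 26 called higher (18.7%). The spread within sets also differed, with a median SD of 1.08 points in set 1 and 1.50 points in set 2, and set 2 had the larger SD at 64.1% of promoters.

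At 24 promoters (0.33%) the level was over 10 points higher in set 2 with no overlap, and at 0 it was over 10 points lower with no overlap. Of the 24, 14 lay outside islands, shores and shelves, 6 were shore promoters and 4 were island promoters. The member nearest inside the threshold was Sez6l2 at 10.4 points, and just outside it were Cys1 at 9.999 points and C1rb at 9.88 points. Without the MspI CpGs, 6 promoters that still had 5 or more sites met the rule, among them Trf, Gm39119, Gm44761 and Parp6 of the 24.

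Trf, which encodes the iron carrier transferrin, had the greatest rise among promoters whose sets did not overlap. Its 10 sites lie 169 to 441 bases upstream of the gene on chromosome 9, outside any island. The level was 15.1%, 29.5%, 12.4% and 15.1% in set 1 lines 11, 17, 29 and 37. It was 53.3%, 90.2%, 57.3% and 31.4% in set 2 lines 20, 21, 44 and 45. Line 17 stood above the other set 1 lines and line 45 came nearest to it. The set means were 18.03% ± 7.75 and 58.0% ± 24.3 (SD, n = 4 each), and the difference passed the logistic model (adjusted p = 0.0101) and limma (adjusted p = 0.0421). The set 2 mean was higher at every site of the printed window. The site at 103230722 had set means of 10.5% and 63.6% and the site at 103230885 had 6.53% and 30.99%, and the promoter rose by 43.3 points without MspI CpGs.

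The antisense transcript Gm39119 on chromosome 7 rose by 29.6 points, with 15 sites 215 to 474 bases upstream. Its lines 11, 17, 29 and 37 had 31.4%, 46.0%, 50.8% and 43.99%. Lines 20, 21, 44 and 45 had 58.4%, 89.7%, 83.6% and 58.9% (adjusted p = 0.0351 in the logistic model and 0.0518 in limma). The sets did not overlap, and lines 21 and 44 stood above the other pair of set 2 lines. Kcnn4, a calcium-activated potassium channel, rose by 23.1 points over 6 sites at 105 to 246 bases upstream. It had 49.2%, 68.0%, 39.4% and 59.2% in lines 11, 17, 29 and 37. It had 80.9%, 86.3%, 69.3% and 71.4% in lines 20, 21, 44 and 45 (adjusted p = 0.00924). Line 44 lay just above line 17, and all 6 sites had higher set means in set 2.

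Hpca, which encodes the neuronal calcium sensor hippocalcin, rose from 68.5% ± 7.85 to 86.4% ± 4.84 (SD, n = 4 each, adjusted p = 0.0176), but its 6 sites all lay in MspI sites. The same held for the 9 sites of Smarce1, a subunit of the BAF chromatin remodelling complex, which rose from 28.9% ± 5.15 to 43.3% ± 2.16 (adjusted p = 0.0217). Ankrd35 rose by nearly the same amount in both origins, by 17.6 points in control-F1 and 17.3 points in ICSI-F1 lines (adjusted p = 0.00761). The homeobox gene Sebox rose from 59.7% ± 7.44 to 74.4% ± 1.77 (adjusted p = 0.0105). Of its 12 sites, 8 lay in MspI sites, and without these it rose by 12.9 points with overlapping sets.

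Xpo5, the exportin that carries microRNA precursors out of the nucleus, rose by 14.7 points at its island promoter. It had 3.02%, 9.61%, 2.05% and 2.04% in lines 11, 17, 29 and 37. It had 16.9%, 18.9%, 21.5% and 18.2% in lines 20, 21, 44 and 45 (adjusted p = 0.0148). One cytosine carried this difference. Position 46202748 on the minus strand, in the MspI site of the printed window, had set means of 13.6% and 81.7%, while its partner at 46202747 on the plus strand had 5.07% and 5.29%. Without MspI CpGs the promoter differed by 1.72 points.

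Gm15446 had a mean difference of 14.6 points with adjusted p = 0.103, and it moved by 26.8 points in control-F1 lines against 2.52 points in ICSI-F1 lines. Sycp2, a component of the synaptonemal complex that pairs chromosomes in meiosis, had 27.6%, 31.1%, 16.9% and 27.9% in lines 11, 17, 29 and 37. It had 34.4%, 60.6%, 33.3% and 31.6% in lines 20, 21, 44 and 45. Line 21 stood apart, line 17 lay just below line 45, and the call was missed (adjusted p = 0.0542).

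**Figure D3:**
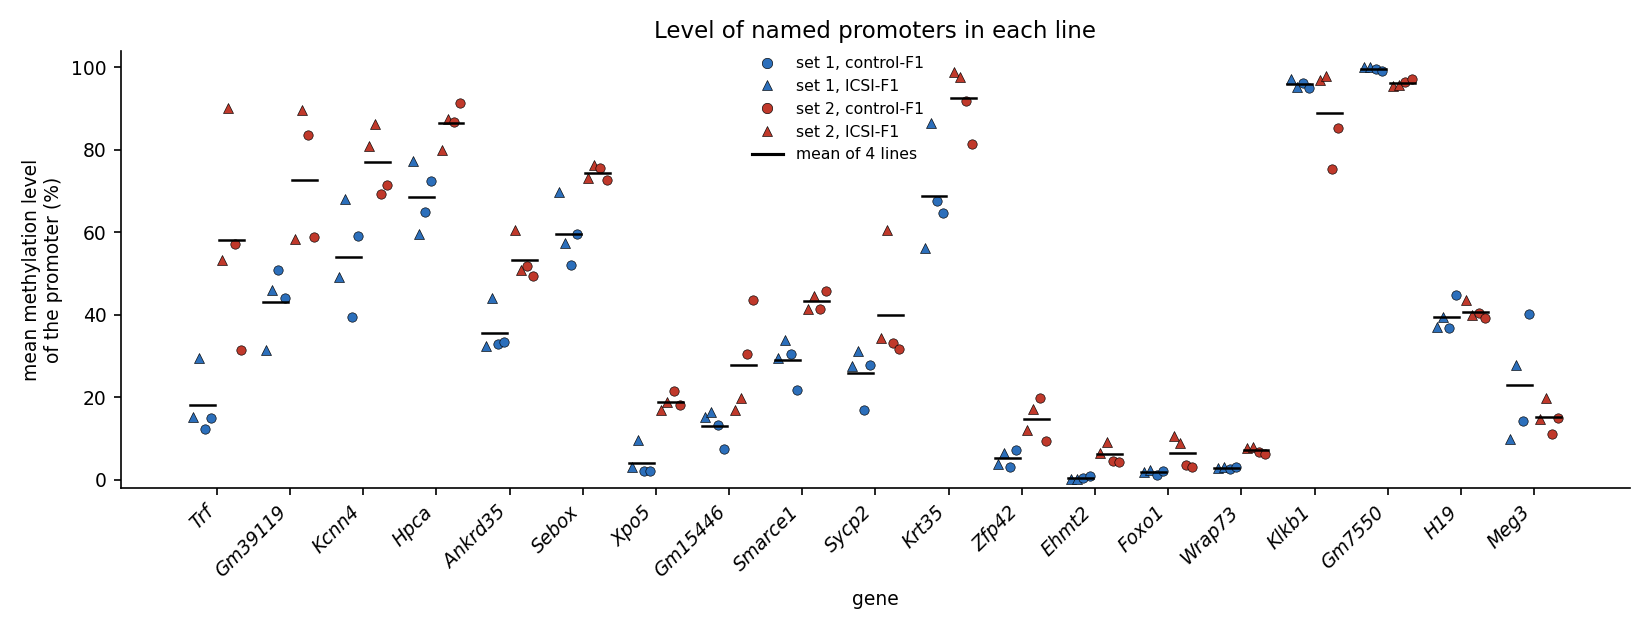
Mean methylation level (%) of 19 named promoters in each of the 8 lines. Points are lines, colours are sets, shapes are origins and bars are means of 4 lines. Trf shows set 1 between 12.4% and 29.5% and set 2 between 31.4% and 90.2%, while Meg3, H19 and Klkb1 overlap.

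The 5 promoters with the smallest p-values had 51 to 147 sites and differences of 2.55 to 5.29 points. The adjusted p of 0.00562 of the last 4 was shared by further promoters, among them Cys1 with 5 sites and a rise from 9.88% ± 1.39 to 19.9% ± 3.07 (SD, n = 4 each). Without MspI CpGs, Cys1 rose by 4.58 points with overlapping sets. Wrap73, a WD repeat protein gene on chromosome 4, had 2.89%, 2.99%, 2.66% and 3.12% in lines 11, 17, 29 and 37. Over the same 51 sites it had 7.81%, 7.98%, 6.84% and 6.21% in lines 20, 21, 44 and 45. The sets were far apart against their spread, at 2.92% ± 0.196 and 7.21% ± 0.833 (SD, n = 4 each, log odds ratio 1.41 ± 0.141 SE, adjusted p = 0.00302). Ccdc186 rose by 5.29 points, Fam76a by 4.97 points and Setbp1 by 2.55 points (adjusted p = 0.00562 for each). Without MspI CpGs they rose by 3.07, 4.70 and 2.49 points, and of these only Ccdc186 had overlapping sets. Foxo1, a forkhead transcription factor needed to maintain spermatogonial stem cells, had 1.85%, 2.33%, 1.22% and 2.04% in lines 11, 17, 29 and 37. It had 10.7%, 8.86%, 3.67% and 3.05% in lines 20, 21, 44 and 45 (adjusted p = 0.00562). Both set 2 ICSI-F1 lines lay above both set 2 control-F1 lines. The set difference was 7.68 points in ICSI-F1 and 1.74 points in control-F1 lines (set by origin term of the logistic model, unadjusted p = 0.212). Over all promoters that term called 0, with 332 at an unadjusted p under 0.05, and Foxo1 was not among these.

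Falls with no overlap were few and small, and the greater falls, down to −18.97 points, had overlapping sets. Gm7550, a long noncoding RNA gene on chromosome 12, was the only promoter called lower with no overlap. It had 100% in lines 11 and 17, 99.5% in line 29 and 99.2% in line 37. It had 95.5%, 95.8%, 96.3% and 97.2% in lines 20, 21, 44 and 45 (difference −3.47 points, adjusted p = 0.0179). Ly6i, of the Ly6 family of surface proteins, had a difference of −1.88 points and Gm48485 one of −1.67 points from levels near 98%, without calls (adjusted p = 0.125 and 0.079). Ddias, whose product suppresses apoptosis after DNA damage, had no overlap at −2.54 points (adjusted p = 0.916). Its site at 92874331, in the MspI site of the printed window, had set means of 83.9% and 56.3%, and without MspI CpGs the promoter difference was 0.693 points. Slc35f6, a solute carrier, had −2.18 points with no overlap (adjusted p = 0.368) and 1.13 points without MspI CpGs.

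The other 4 promoters called lower had overlapping sets. Klkb1, which encodes plasma prekallikrein, had 97.2%, 95.1%, 96.1% and 94.8% in lines 11, 17, 29 and 37. It had 97.0%, 97.9%, 75.3% and 85.4% in lines 20, 21, 44 and 45 (adjusted p = 0.0435). The difference was −15.1 points in control-F1 lines and 1.28 points in ICSI-F1 lines. Lap3, a leucine aminopeptidase, differed by −1.11 points in mean level (adjusted p = 0.00921). H19 and Gm45533 were called lower by the model, which sums reads over sites and so weights them by coverage, while their mean levels differed by 1.199 and 2.07 points in the other direction (log odds ratios −0.74 ± 0.245 and −0.58 ± 0.135 SE, adjusted p = 0.0411 and 0.0138).

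Without the overlap condition, 101 promoters were over 10 points higher and 7 over 10 points lower. Nos3, the endothelial nitric oxide synthase, was chosen after its values were seen, since it held 7 of the rule-passing sites outside MspI sites described below. Its set means were 47.5% ± 19.9 and 72.4% ± 13.3 (SD, n = 4 each), with line 37 at 17.9% and the sets overlapping (adjusted p = 0.0396). Parp6, an ADP-ribosyltransferase gene also chosen after its values were seen, held 36 island sites that were almost free of methylation in set 1. It had 0.832%, 0.953%, 0.272% and 1.28% in lines 11, 17, 29 and 37. It had 4.40%, 11.997%, 6.66% and 24.1% in lines 20, 21, 44 and 45 (adjusted p = 0.00681). The sets did not overlap and line 45 was highest.

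Set differences were computed separately in the control-F1 and in the ICSI-F1 lines, which share no line. The medians were 2.40 points in control-F1 and 1.82 points in ICSI-F1. Both differences were above 0 at 5900 promoters and both were below 0 at 148, while 679 were above 0 only in control-F1 and 551 only in ICSI-F1. The sizes followed each other weakly, with a Pearson correlation of 0.119 and a Spearman correlation of 0.237 across 7278 promoters, which share libraries and depth. Of 194 promoters over 10 points higher in control-F1 lines, 144 were above 0 and 32 over 10 points in ICSI-F1 lines. Of 120 promoters over 10 points higher in ICSI-F1 lines, 93 were above 0 in control-F1 lines. Gm11734, a long noncoding RNA gene, moved by 37.7 points in control-F1 and 31.8 points in ICSI-F1 lines, but its sets overlapped because line 37 had 83.1% (adjusted p = 0.108).

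**Figure D4:**
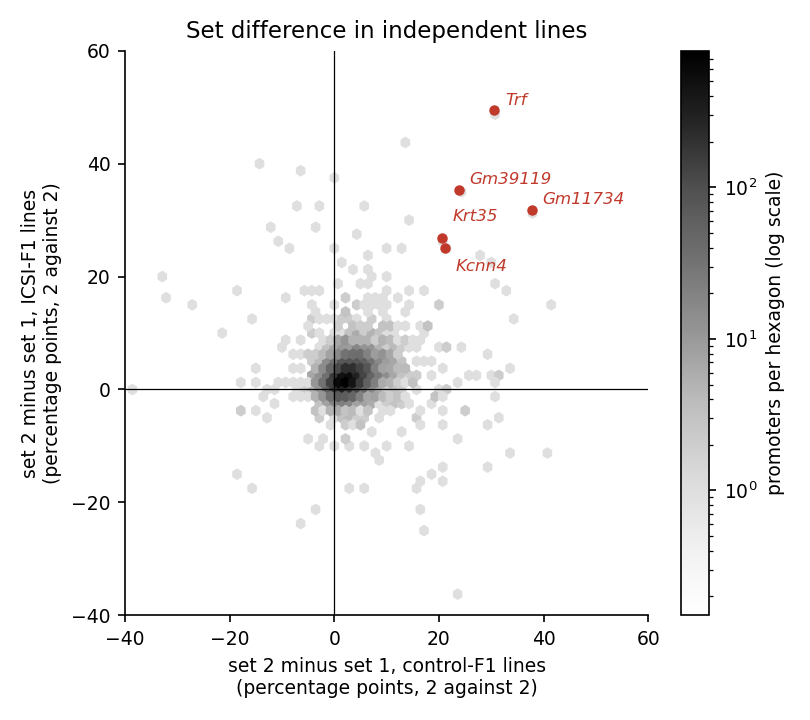
Set 2 minus set 1 difference of 7278 promoters (percentage points) in the control-F1 lines (horizontal) against the ICSI-F1 lines (vertical), 2 lines against 2 each. Shading is the number of promoters per hexagon on a log scale and 5 promoters are named. Most promoters lie near the medians of 2.40 and 1.82 points, and Trf lies at 30.6 and 49.4 points.

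The promoters were also grouped by gene lists. For each, the count called higher stands beside 31.1% of all promoters, and the median beside 2.15 points. The share called ran from 12.04% at 5 to 9 sites to 61.6% at 40 or more. The lists were not matched for number of sites, so a share above or below 31.1% is no result about a list. Of 3 measured promoters of imprinted genes methylated on the maternal allele, Impact was called higher, from 7.10% ± 1.26 to 12.9% ± 1.29 (SD, n = 4 each, adjusted p = 0.028), and the list had a median of 0.501 points. Of 4 paternally methylated ones, Dio3, which encodes a thyroid hormone deiodinase, rose by 1.88 points (adjusted p = 0.0289). Rasgrf1, a guanine nucleotide exchange factor, rose by 2.69 points (adjusted p = 0.00714), though by 0.346 points without MspI CpGs. H19 was called lower as above. Meg3, a noncoding RNA, had 9.99%, 27.7%, 14.1% and 40.3% in lines 11, 17, 29 and 37. It had 14.8%, 19.9%, 11.1% and 15.0% in lines 20, 21, 44 and 45 (adjusted p = 0.501). Lines 17 and 37 were high within set 1, and the sets overlapped. Of 13 other imprinted genes, 4 were called higher (Ascl2, Casd1, Cd81 and Cobl), with a median of 1.79 points. Tssc4 had 23.0% in line 44 and 7.68% in line 45 against 0% to 2.96% in the other 6 lines (adjusted p = 0.0783).

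Among 18 spermatogonial stem cell genes, 5 were called higher and 0 lower, with a median of 2.08 points. Cd9, the surface protein used to sort the founding cells, had 2.11%, 3.60%, 3.41% and 6.50% in lines 11, 17, 29 and 37. It had 10.4%, 7.19%, 8.46% and 11.1% in lines 20, 21, 44 and 45 (adjusted p = 0.0383). The sets did not overlap, with line 21 nearest to line 37. Etv5, a transcription factor downstream of GDNF, rose by 4.23 points with overlapping sets (adjusted p = 0.00714). Eomes, Foxo1 and Shisa6 were the others. Ccnd3, a G1 cyclin, had 10.4 points without a call (adjusted p = 0.0501), and 1.40 points without MspI CpGs.

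Of 21 germ cell genes, 2 were called higher (9.52%), with a median of 2.01 points. Asz1, a piRNA pathway gene, rose from 1.14% ± 0.409 to 5.46% ± 4.64 (SD, n = 4 each, adjusted p = 0.0109), with 12.4% in line 21. Sohlh2, a transcription factor of spermatogonia, rose from 1.74% ± 1.13 to 6.94% ± 3.16 (adjusted p = 0.0253). The germ cell genes Dazl and Ddx4 had 7.93% and 3.63% in set 1 and 9.70% and 3.87% in set 2 (adjusted p = 0.336 and 0.744).

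Of 9 pluripotency genes, 3 were called higher, with a median of 1.35 points. Zfp42, a zinc finger gene used as a marker of pluripotent cells, had 3.86%, 6.61%, 3.18% and 7.21% in lines 11, 17, 29 and 37. It had 11.995%, 17.2%, 19.8% and 9.46% in lines 20, 21, 44 and 45. The sets did not overlap, the difference was 9.46 points in control-F1 and 9.37 points in ICSI-F1 lines, and the adjusted p was 0.0102. Sall1 and Klf5, both transcription factors, were the others.

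Of 18 genes of the DNA methylation machinery and related chromatin enzymes, 7 were called higher, with a median of 2.62 points. Ehmt2, the H3K9 methyltransferase G9a, had 0.315%, 0.225%, 0.528% and 0.990% in lines 11, 17, 29 and 37. It had 6.62%, 9.24%, 4.46% and 4.25% in lines 20, 21, 44 and 45 (adjusted p = 0.00681). The sets did not overlap. On the plus strand of the printed window, position 34898404 had 0% in all set 1 lines and a set 2 mean of 10.8%, and position 34898405 on the minus strand had 1.56% and 1.64%. Cxxc1, a protein that binds unmethylated CpGs, rose from 0.725% to 5.04% (adjusted p = 0.00674). Uhrf2, Nsd2, Gadd45b, Kmt2d and Dot1l were the others.

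Genes of other cell types were included too. Of 10 Sertoli and Leydig cell genes, Gdnf (adjusted p = 0.0147) and Sox9 (adjusted p = 0.0109) were called higher by 3.09 and 3.43 points, and the list median was 2.99 points. Lhcgr, the luteinizing hormone receptor, had 71.1% in line 29 and 18.9% to 39.95% in the other lines (adjusted p = 0.146). Of 4 fibroblast markers 0 were called by the logistic model, with a median of 1.39 points, and Loxl1 had 85.0% in set 1 and 86.8% in set 2. Of 12 housekeeping genes 2 were called higher, with a median of 2.56 points. Psmb4, a proteasome subunit, had the greatest difference among them at 10.6 points (adjusted p = 0.189), and −0.145 points without MspI CpGs.

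Among families taken by symbol, 7 of 13 Hox cluster genes were called higher (median 2.89 points), as were 9 of 18 protocadherins and cadherins (median 3.28 points). Hoxb13, a homeobox gene of posterior identity, rose from 4.87% to 8.80% (adjusted p = 0.0197), and Cdh3, P-cadherin, from 2.43% to 7.04% (adjusted p = 0.00854). Without MspI CpGs, Hoxb13 rose by 2.51 points with overlapping sets. The counts were 52 of 170 for zinc finger genes (median 2.08 points), 33 of 133 for solute carriers (median 2.45 points) and 12 of 46 for symbols beginning as ribosomal protein genes do (median 2.08 points), a pattern that also takes in ribosomal S6 kinases. Of 406 Gm genes 74 were called higher and 2 lower, and of 229 Rik transcripts 62 were called higher. Of 15 keratins, claudins and connexins 5 were called higher (median 3.45 points). The hair keratin Krt35 led them at 23.7 points, from 68.7% ± 12.8 to 92.4% ± 7.92 (SD, n = 4 each, adjusted p = 0.00748), with line 17 of set 1 at 86.6% above line 45 of set 2 at 81.5%. Of 10 olfactory, vomeronasal and taste receptors 0 were called (median 0.749 points), and Olfr212 had −16.4 points with overlapping sets (adjusted p = 0.125). None of the 3 microRNA genes was called, and no clustered histone gene had 5 sites.

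**Figure D5:**
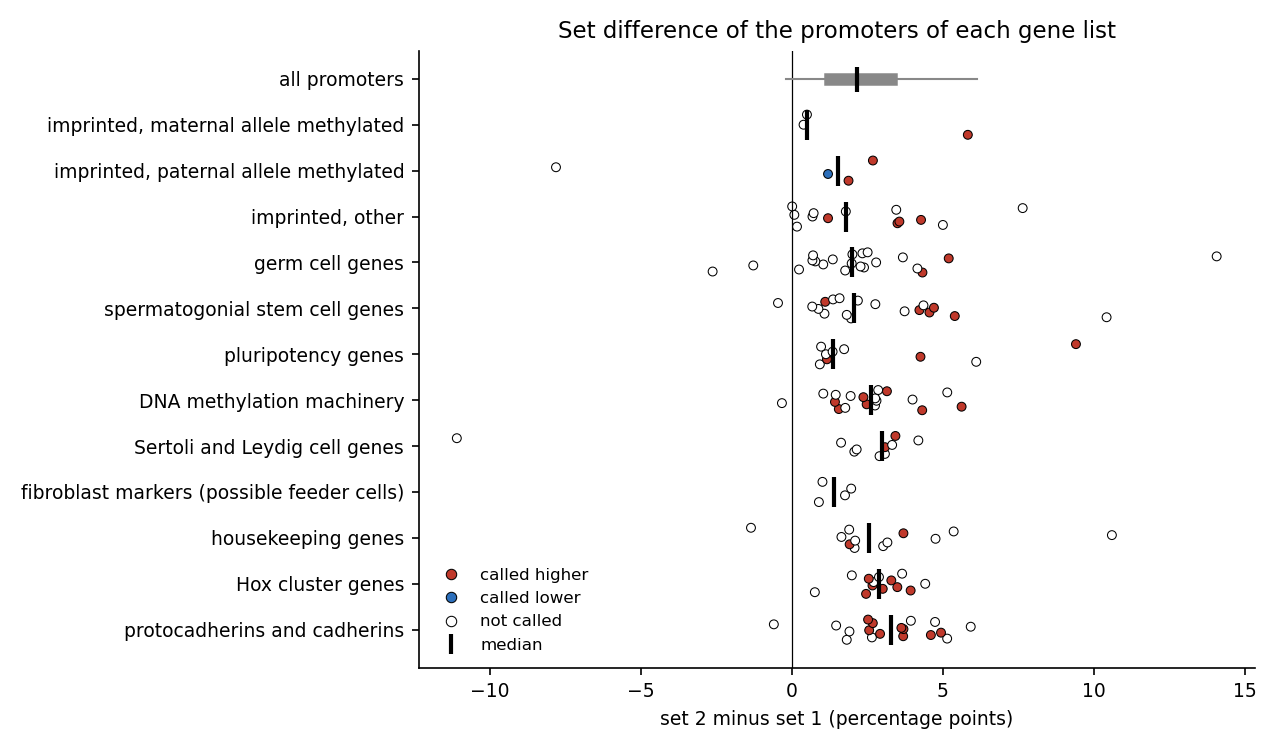
Set 2 minus set 1 difference (percentage points) of the promoters in each of 12 gene lists, with the bar for all 7278 promoters on top (thick part, 25th to 75th percentile thin part, 5th to 95th percentile). Filled points passed the logistic model. The medians lie from 0.501 points for maternally methylated imprinted genes to 3.28 points for protocadherins and cadherins, around 2.15 points for all promoters.

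Single sites were counted by a rule of size without a test, as sites whose set means differed by more than 20 points with every set 2 line on one side of the set 1 mean. It took 2520 sites higher in set 2 (1.24% of all sites) and 127 lower (0.0624%). By class, 1406 island sites (0.900%), 564 shore sites (2.56%), 49 shelf sites (3.26%) and 501 sites outside (2.09%) were higher. MspI CpGs, 17.1% of all sites, made up 92.0% of the higher and 84.3% of the lower sites. Outside MspI sites, 202 sites (0.120%) were higher and 20 (0.0118%) lower. The 202 sites belonged to 111 genes. Gm39119 and Krt35 held 8 each and Nos3 held 7.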

How the data were processed

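Genomic DNA of 8 GS cell lines was digested with MspI, bisulfite-treated and sequenced, 1 library per line. The submitters' processing notes name Trim Galore (0.5.0), Bismark (0.20.0), methylKit (1.16.0) and the build mm10. The deposited table gives, per cytosine within 1 kb upstream of a gene, methylated and unmethylated read numbers as a score, since the authors multiplied reads by a factor per line and rounded them. It holds sites with at least 10 reads in every line. The authors' gene and CpG class assignments were used.

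Levels were methylated over methylated plus unmethylated scaled reads, averaged without weights over sites. Line averages were compared with exact permutation tests. For each promoter with 5 or more sites, summed scaled reads were fitted with a quasi-binomial logistic model (set and origin), with the dispersion moderated across promoters by limma (3.58.1) in R (4.3.3) and not below 1, with Benjamini-Hochberg adjustment. The fit was also run on simulated data. These took scaled totals as independent reads and held no shift shared by all promoters, so they could not test the scaling. Scaled reads overstate the read numbers by a factor of 1.333 to 1.875 in set 1 lines and 1 to 1.154 in set 2 lines. A single dispersion per promoter does not correct factors that are unequal between lines. An alternative fit divided the read numbers by the factor. After unscaling, methylated read numbers were even at 71.8% to 75.3% of sites with such reads in set 1 lines. In set 2 lines the share was 80.6% to 81.4%. Independent reads may thus be fewer than the read numbers, which was not tested. Python (3.11.15), numpy (2.4.6), pandas (2.3.3) and scipy (1.17.1) were used. Sequences came from RefSeq GRCm38.p6, where 203644 of 203645 sites lay in a CpG, and gene overlaps from GENCODE M21.

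The lists, the promoters and the tests were chosen with earlier results of these data known. Named were the 10 greatest rises and all falls with no overlap, the 5 smallest adjusted p-values per direction (ties by unadjusted p), called list members (examples in long lists) or else the member with the largest difference, and H19 and Meg3. Alternatives changed weighting, strands, coverage, site number, test, scaling, centring and lines. Leaving out MspI CpGs, subtracting the median and weighting the class contrasts by coverage were chosen after seeing the data.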

Additional observations from a re-analysis of the deposited data

Results flagged for a closer look

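In 10 of 96 sets of 4 lines, 1 line lay so far from the other 3 that its gap passed Dixon's critical value. For unselected values, chance passes about 1 in 20. Most of the promoters were chosen from these same data for their values, so the shares cannot be compared. In set 1 these were line 29 at Lhcgr (71.1%) and Impact (8.97%), and line 17 at Trf (29.5%), Ankrd35 (44.2%) and Xpo5 (9.61%). In set 2 they were line 44 at Fam76a (10.0%) and Pcdh10 (17.2%), line 21 at Ccnd3 (25.9%) and Sycp2 (60.6%), and line 45 over CpG shelf sites (19.4%). Line 17 was the highest set 1 line at its 3 promoters and still below all set 2 lines. Their causes were not tested.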

How the results depend on the processing

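Of 220 alternative values for the site averages, the class contrasts and the counts, 173 were taken as unchanged. For counts this meant within 1.5 times, and for averages and contrasts the same direction and side of the threshold. With 1 line left out or a single origin, averages and contrasts had to move by less than the smaller set SD. Beyond these, 46 counts moved by more than 1.5 times, 1 contrast passed its threshold anew and 0 reversed. The rise of the mean level kept its direction in every class under every alternative run. The contrast that passed anew was the excess of sites outside over islands, 2.11 points when weighted by coverage. Promoters called higher were 822 with unmoderated dispersion, 970 with limma on the level, 1098 at a mean level of 5% or more, and 0 after subtracting the mean or the median of each line. They were 1069 to 2244 when 1 line was left out, with 1069 without line 11, 1379 without line 29, 1283 without line 20 and 1361 without line 44. Promoters called lower were 2 unmoderated, 1 with limma on the level, 3 with limma on the log2 ratio of reads, 3 at 5% or more, 8 with 3 or more sites, 8 without MspI CpGs (5 or more other sites left), 0 after either subtraction, and 3 to 6 with 1 line left out (3 without line 11).

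Promoters over 10 points higher with no overlap were 344 over 5 points, 3 over 20 points, 101 without the overlap condition, 10 with strands merged, 7 with 10 or more sites, 38 with 3 or more, 7 and 5 after subtracting the mean and the median, 6 without MspI CpGs (5 or more other sites left), and 28 to 52 with 1 line left out (52 without line 17, 49 without line 45). The corresponding falls were 7 without the overlap condition, 1 on summed reads and 0 to 2 with 1 line left out, with 2 without line 29 and 1 without line 20, 21 or 44. Rule-passing sites were 1485 higher and 67 lower with no overlap, 5625 and 751 over 10 points, 877 and 23 over 30 points, 492 and 26 with strands merged, 202 and 20 without MspI CpGs, and 1680 to 2955 and 147 to 201 with 1 line left out (201 lower without line 11). Among 43 promoters, H19 had −14.8 points on summed reads and −1.02 within control-F1, Gm45533 −10.5 and −0.680, and Klkb1 1.28 within ICSI-F1. Except where the setting removes sites or lines, the cause was not tested. No paired analysis was possible because no line number is shared between the sets.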
